A study of Mus musculus with 8 samples.

Results

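Stemness and quiescence transcription factors, which T cells use to stay at rest and to renew themselves, were followed in T cells sorted from the pancreas of diabetic mice. They are Tcf7, Lef1, Klf2, Klf3, Bach2, Foxo1, Foxp1 and Satb1. They were chosen by name, as 8 of the 32285 features in each count matrix, and all 8 passed the filter on low counts in every fit described here. Each was read as unique molecular identifiers (UMIs, 1 for each captured RNA molecule) summed over the cells of a gate within a library. A T cell had at least 2 UMIs over Cd3d, Cd3e, Cd3g, Trac, Trbc1 and Trbc2. The CD4 gate took cells with a Cd4 UMI and none of Cd8a or Cd8b1, and the CD8 gate took the reverse. CD8-gated cells were split by whether they held a UMI of Ccl5, a chemokine made by memory and effector CD8 cells, and cells with a UMI of Foxp3, the factor that defines regulatory T cells, made up the last subset.

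The animals were NOD mice, an inbred strain that develops autoimmune diabetes, labelled female and 3 to 4 months old, although the treatment protocol gives 3 to 5 months. Single-cell libraries (10x Genomics, 3′) were made from CD45+ CD3+ TcR-beta+ cells sorted from dissociated pancreas and frozen. The active group (blood glucose above 600 mg/dl) and the onset group (250 mg/dl) were harvested on day 1 and are 1 library each. Mice with new disease (200 to 300 mg/dl) received daily either PPCA, which is nutlin-3 at 50 mg/kg with MK-1775 at 25 mg/kg, or a vehicle of ethanol, Tween 20 and PEG300, and were harvested on days 2, 3 and 4, each the day after the last dose, with 1 library for each arm and day. Nutlin-3 blocks MDM2 and so stabilises p53, and MK-1775 inhibits the mitotic checkpoint kinase WEE1. No treatment is listed for the active and onset groups, and the number of mice behind a library is not given in the labels, so a library is the replicate.

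The 8 libraries held 36934580 to 67603740 UMIs, and 70365 of 80470 barcodes were kept as T cells, among them 27480 in the CD4 gate, 15595 in the CD8 gate without Ccl5, 6517 with Ccl5 and 2569 with Foxp3. Of the Foxp3 cells 1126 lay in the CD4 gate and 250 in the CD8 gate, and the rest in neither. Without Foxp3, which set the gate, the other 3 regulatory T cell markers (Il2ra, Ikzf2 and Ctla4) summed to between 998 and 1707 CPM (UMIs per 1000000 UMIs of the summed cells) in Foxp3 cells, against 62.1 to 216 CPM over all T cells. Without Ccl5, which set the other gate, the remaining 5 cytotoxic markers summed to 1259 to 2256 CPM in CD8-gated cells with Ccl5 against 417 to 634 CPM without. The 3 B cell markers summed to at most 23.2 CPM and the 3 natural killer markers to at most 6.11 CPM in these 4 subsets, and the 4 myeloid markers, Cst3 among them, to 106 to 194 CPM. The 12 exocrine and endocrine pancreas markers summed to 6.51 to 252 CPM in the CD4 gate, 17.2 to 160 with Ccl5, 10.4 to 147 without and 33.7 to 283 in Foxp3 cells, and their part in the results was not tested. Of 70396 distinct barcodes 572 occurred in more than 1 library. The labels call every mouse female, but the libraries of vehicle day 2, vehicle day 3, PPCA day 3 and PPCA day 4 carried Y-linked transcripts (186 to 272 CPM over 4 genes) and almost no Xist, while the other 4 had Xist at 417 to 613 CPM. Whether the label of sex or the group label of a library is wrong cannot be told apart from these files, and exchanged libraries would put the treatment and day labels in doubt too. Results are therefore also given with that class as a factor or within it where it changes them.

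Tcf7 (encoding TCF1) and Lef1 are related DNA-binding partners of beta-catenin that set up T cell identity and keep naive and stem-like memory cells able to renew. Foxo1, a forkhead factor restrained by growth factor and antigen receptor signalling, drives Klf2, Ccr7 and Il7r, and Klf2 in turn drives the exit receptor S1pr1. Foxp1 holds naive cells quiet, Bach2 represses effector genes, Satb1 organises chromatin in developing T cells, and Klf3 is a repressor that binds the same CACCC boxes as Klf2. In autoimmune infiltrates, cells with these factors are held to be the renewing pool that feeds the effector cells.

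Klf2 and Klf3 were the members that differed between harvest days, in opposite directions, so the 250 bases before their annotated starts are shown for the boxes through which the family acts. Capitals mark CCACCC or its complement GGGTGG, read on both strands, and positions are bases before the gene start. The RefSeq promoter table (GRCm38.p6) gives both genes on the plus strand, Klf2 at chr8:72318812-72319061 and Klf3 at chr5:64803271-64803520.
Klf2: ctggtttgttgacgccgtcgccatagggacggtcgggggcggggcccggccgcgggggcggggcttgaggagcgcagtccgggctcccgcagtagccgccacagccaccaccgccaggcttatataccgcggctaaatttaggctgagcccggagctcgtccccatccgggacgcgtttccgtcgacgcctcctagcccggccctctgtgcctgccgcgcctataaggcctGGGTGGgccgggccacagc
Klf3: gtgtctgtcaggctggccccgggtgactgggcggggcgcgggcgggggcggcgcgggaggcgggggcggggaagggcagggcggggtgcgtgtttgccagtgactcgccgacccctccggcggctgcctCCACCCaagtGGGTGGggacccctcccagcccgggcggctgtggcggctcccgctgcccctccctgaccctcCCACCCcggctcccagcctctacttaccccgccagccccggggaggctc
The Klf3 window held 3 such matches, starting 121, 111 and 49 bases before the start, and the Klf2 window held 1, starting 19 bases before it. Over 32851 promoter windows of this length, 28.1% held CCACCC on either strand. Among the 18 windows that the table lists for the 8 members, 11 held it, in 6 members. The TCF and LEF core CTTTGA was in 3 of those 18 windows and in 13.8% of all windows. The windows shown were 71.2% (Klf2) and 78.4% (Klf3) G or C, and some of the 18 windows belong to the same gene. Whether the members differ from all windows was not tested. These are matches of letters, and no binding was measured.

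All 8 factors had their lowest or near lowest level in CD8-gated cells with Ccl5, and 4 of them, Tcf7, Lef1, Satb1 and Klf2, were about as low in Foxp3 cells. Levels are given as mean ± SD over the 8 libraries, which mixes conditions, and are compared within a gene only. Tcf7 stood at 478 ± 33.1 CPM in the CD4 gate, 369 ± 42.9 in CD8-gated cells without Ccl5, 274 ± 31.4 with Ccl5 and 272 ± 31.5 in Foxp3 cells. Lef1 followed the same order, at 823 ± 112, 717 ± 58.6, 342 ± 57.5 and 319 ± 82.7 CPM. The last pair in each order overlapped almost fully, and the ranges of the first pair overlapped for both genes as well.

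Satb1 ran from 502 ± 57.2 CPM in the CD4 gate through 402 ± 29.7 in CD8-gated cells without Ccl5 to 282 ± 57.7 in Foxp3 cells and 268 ± 44.1 with Ccl5. Bach2 stood at 95.7 ± 8.62 CPM in the CD4 gate, 88.3 ± 14.7 in Foxp3 cells, 77.1 ± 8.53 in CD8-gated cells without Ccl5 and 37.8 ± 10.5 with Ccl5. Only in the last of these subsets did its highest library (59.1 CPM) stay under the lowest library of the other 3 (60.2 CPM). Foxp1 differed little between 3 subsets, with 456 ± 39.5 CPM in the CD4 gate, 453 ± 49.6 in Foxp3 cells and 440 ± 30.2 in CD8-gated cells without Ccl5, and stood at 307 ± 34.0 CPM with Ccl5.

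Foxo1 and Klf3 had their highest mean in Foxp3 cells. For Foxo1 it was 228 ± 30.2 CPM, overlapping the CD4 gate at 204 ± 24.4. CD8-gated cells held 148 ± 9.52 CPM of Foxo1 without Ccl5 and 116 ± 11.0 with it. Klf3 varied more between libraries than between subsets, with means of 141 ± 34.4 CPM in Foxp3 cells, 126 ± 30.1 in the CD4 gate, 125 ± 27.0 in CD8-gated cells without Ccl5 and 106 ± 24.7 with Ccl5. Klf2 had the widest spread, 1069 ± 610.1 CPM in the CD4 gate, 1082 ± 549.1 in CD8-gated cells without Ccl5, 794 ± 384 in Foxp3 cells and 751 ± 324 with Ccl5, because the day 4 libraries lay apart from the rest, as described further on.

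**Figure D1:**
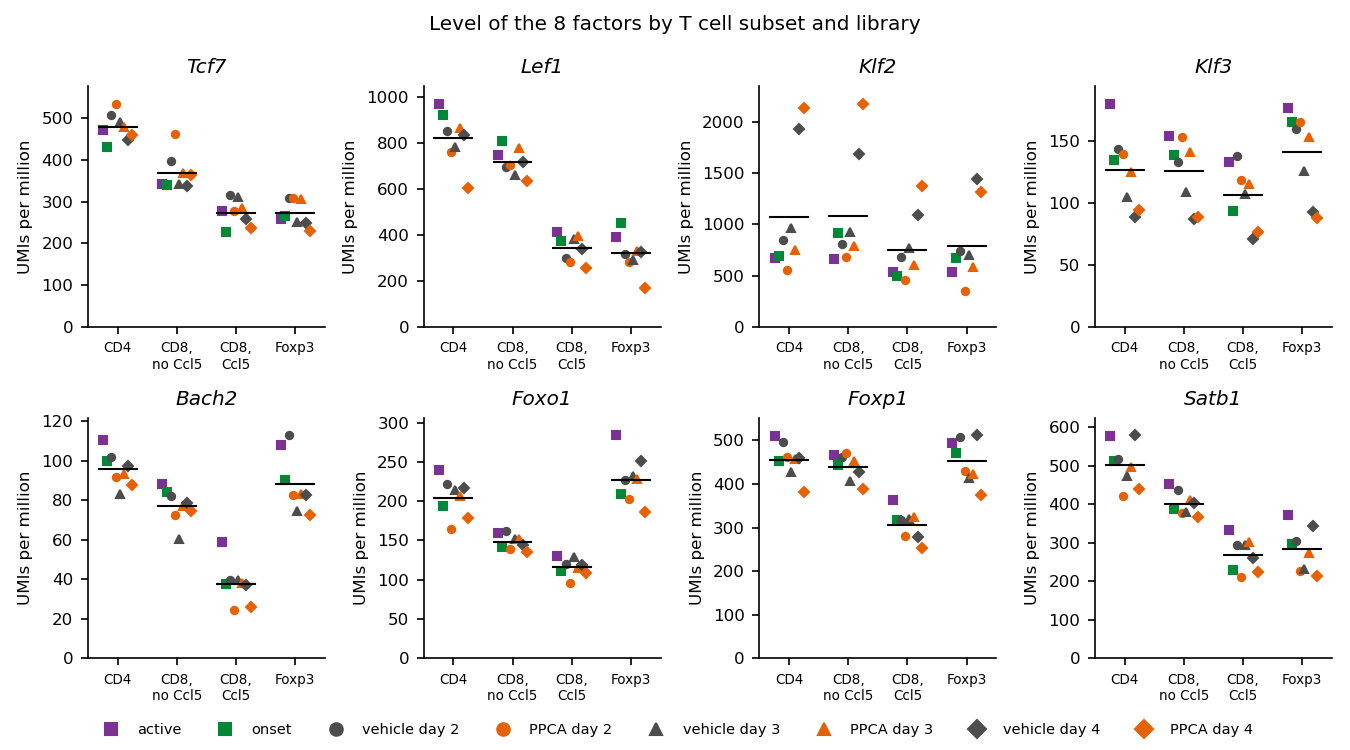
Level of each factor (y axis, CPM, from 0) in 4 T cell subsets (x axis), with 1 point for each of the 8 libraries and a line at their mean. Lef1 has a mean of 823 in the CD4 gate and 342 in CD8-gated cells with Ccl5, and the day 4 points (diamonds) of Klf2 lie above all others in every subset.

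Within the CD8 gate, every one of the 8 factors was lower in cells with Ccl5 than in cells without, by edgeR's quasi-likelihood test with the library as a block and Benjamini-Hochberg adjustment over 10401 genes. Over all genes tested, 21.9% were called lower and 19.5% higher, and the median log2 change was -0.02 against -0.62 for the 8 members. In CPM, 7 of the 8 members were lower in all 8 libraries, which held for 7.51% of all genes, and Klf3 was lower in 7. The median gene was 0.08 higher in CPM on the log2 scale with Ccl5, and the fit is relative to that shift. In such sums, fewer cells with a transcript and less of it in each cell cannot be told apart.

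Lef1 and Bach2 showed the widest gaps, with log2 ratios within libraries of -1.32 to -0.79 and -1.56 to -0.58. The lowest, median and highest library of Lef1 were 254, 355 and 410 CPM with Ccl5 and 633, 709 and 808 CPM without. The sides thus did not overlap, and at most 7.51% of all genes, those lower in all 8 libraries, can lie apart in this direction. The log2 change of Lef1 was -1.19 (SE 0.052, adjusted p = 8.9e-14). Bach2, the repressor of effector genes, was at 24.6, 37.9 and 59.1 CPM against 60.2, 77.9 and 88.1 CPM, again without overlap, and its log2 change was -1.16 (SE 0.087, adjusted p = 6.8e-10).

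Satb1 was lower by a log2 change of -0.70 (SE 0.049, adjusted p = 1.7e-10), with 210 to 333 CPM in cells with Ccl5 and 368 to 451 CPM without. Foxp1 changed by -0.63 (SE 0.041), from 388 to 472 CPM without Ccl5 to 254 to 363 CPM with it. For both genes the highest library with Ccl5 stayed under the lowest without, which again at most 7.51% of all genes can do. Tcf7 was lower by -0.54 on the log2 scale (SE 0.053, adjusted p = 3.5e-08), with 228 to 315 CPM against 337 to 463 CPM. Foxo1 changed by -0.46 (SE 0.036), with 95.7 to 130 CPM against 136 to 162 CPM.

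The 2 Krüppel-like factors had overlapping ranges. Klf2 had a log2 change of -0.61 (SE 0.061, adjusted p = 5.2e-08), and within libraries the log2 ratio ran from -0.90 to -0.25. Klf3 had the smallest change, -0.35 (SE 0.056, adjusted p = 3.3e-05), with log2 ratios of -0.58 to 0.06. These 2 were the members no longer called in a fit without the library block (adjusted p = 0.18 and 0.067), which left 6 of 8.

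The size of these changes depended on how the split was made. With at least 3 Ccl5 UMIs on the upper side, the log2 change was -2.24 for Lef1, -2.04 for Bach2, -1.15 for Satb1, -1.08 for Foxp1, -1.005 for Klf2, -0.86 for Tcf7, -0.71 for Foxo1 and -0.55 for Klf3, all 8 called. With cells thinned to 2000 UMIs before gating it was -1.99, -1.81, -1.34, -1.05, -1.11, -1.06, -0.74 and -0.75 in the same order of genes, again with all 8 called. Within the 4 libraries with Y-linked transcripts Klf3 had -0.20 (adjusted p = 0.014).

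**Figure D2:**
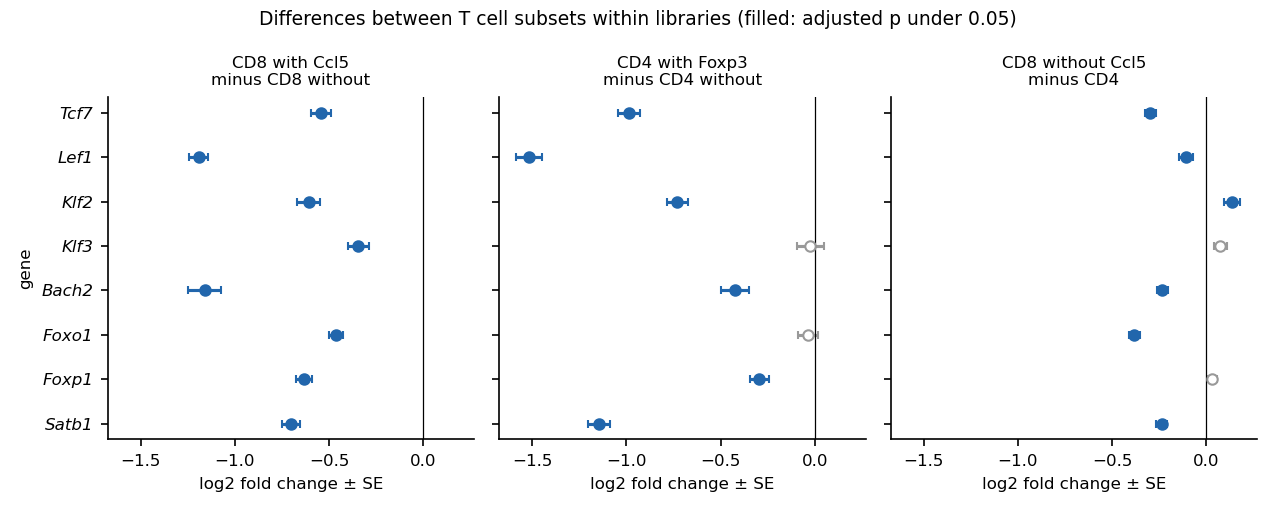
Log2 fold change ± SE (x axis) of each factor (y axis) in 3 comparisons of cells from the same 8 libraries, filled where the adjusted p is under 0.05. All 8 points are filled and below 0 in the left panel, 6 in the middle panel, and in the right panel 5 lie below 0 and Klf2 above it at 0.14.

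The number of Ccl5 UMIs in a cell ordered the factors further. These bins were chosen after the values were seen and carry no test. Lef1 was lower at each step in all 8 libraries, with means of 717 ± 58.6 CPM in cells with no Ccl5 UMI, 666 ± 59.0 with 1 to 2, 336 ± 50.1 with 3 to 9 and 148 ± 40.4 with 10 or more (SD, n = 8). Bach2 went from 77.1 ± 8.53 through 68.9 ± 13.2 and 38.5 ± 19.4 to 19.3 ± 9.59 CPM, resting on 3 to 31 UMIs a library in the 3 to 9 bin and 20 to 69 in the highest. Lef1 and Bach2 thus kept 20.6% and 25.0% of their level in the highest bin.

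Tcf7 differed from its relative Lef1 in this respect, since its mean was still 340 ± 45.7 CPM in cells with 3 to 9 Ccl5 UMIs, against 369 ± 42.9 in cells with none, and reached 213 ± 40.6 CPM with 10 or more. The share left in the highest bin was 57.6% for Tcf7, 64.5% for Foxo1, 52.2% for Klf2, 49.5% for Foxp1 and 46.8% for Satb1. Klf3 had its highest mean in the 3 to 9 bin, 138 ± 33.9 CPM, and stood at 89.3 ± 26.7 CPM above that, lower than without Ccl5 in 7 of 8 libraries. With 1 or 2 Ccl5 UMIs, Lef1 and Bach2 were lower than in cells with none in all 8 libraries, while each other member was lower in 3 to 6 of them. The log2 ratios ran from -0.19 to -0.003 for Lef1 and from -0.35 to -0.003 for Bach2. Some libraries were thus nearly level.

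**Figure D3:**
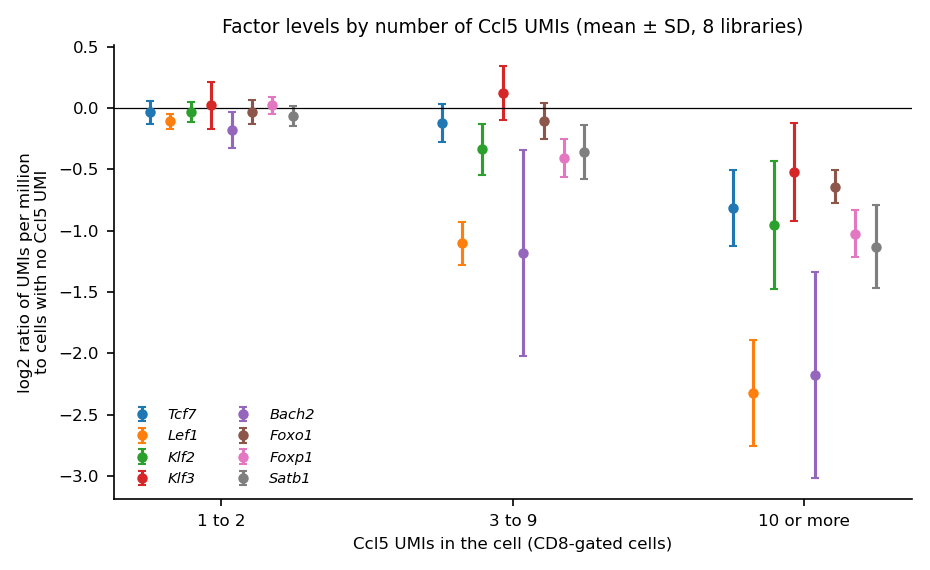
Mean log2 ratio ± SD over 8 libraries (y axis) of each factor in CD8-gated cells with 1 to 2, 3 to 9 or 10 or more Ccl5 UMIs (x axis) against CD8-gated cells of the same library with none. In the 3 to 9 bin the means of Lef1 (-1.10 ± 0.18) and Bach2 (-1.18 ± 0.84) lie below those of the other 6 factors. Single libraries of Bach2 run from -2.49 to -0.27 there, so it does not stand apart in each library. In the last bin the 2 means reach -2.32 and -2.18.

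The genes on which the factors are known to act split in this comparison. Of 14 genes chosen as their targets and naive markers, 7 were lower and 4 higher with Ccl5 (median -0.24, all genes -0.02). Among the lower ones were Actn1 (-1.28, SE 0.058), an actin cross-linker of naive T cells, Dapl1 (-1.09, SE 0.057) and the lymph node homing receptor Ccr7 (-1.09, SE 0.051). Of 12 effector factors all 12 were higher, led by Zeb2 (5.68, SE 0.17), Prdm1 (3.63, SE 0.12), Bhlhe40 (3.57, SE 0.13) and Tbx21 (3.15, SE 0.17), which encode drivers of effector differentiation. Zeb2 failed the low-count filter in the PPCA fit of cells without Ccl5 and passed it with Ccl5. Its value thus sets the Ccl5 side against few UMIs. Of 12 other factors of resting lymphocytes 4 were higher and 3 lower (median -0.01), led by Mxd4 (0.64, SE 0.075), a Myc antagonist, Bcl6 (0.63, SE 0.15) and Tsc22d3 (-0.48, SE 0.039). Among 11 relatives of the members 8 were tested, with Klf10 (0.89, SE 0.073), Klf6 (0.64, SE 0.061) and Foxj2 (0.39, SE 0.075) higher and Klf7 lower (-0.35, SE 0.067). The direction held for the 8 members was thus not shared by their Krüppel-like relatives Klf10 and Klf6.

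Among CD4-gated cells, those with a Foxp3 UMI had less of 6 of the 8 factors than those without, and Foxo1 and Klf3 did not pass the test. Over 10478 genes tested 15.4% were called lower and 14.8% higher, with a median of -0.03 against -0.58 for the members. In CPM, 4.1% of all genes were lower in all 8 libraries, among them Lef1, Satb1, Tcf7 and Klf2. The Foxp3 side rests on 100 to 207 cells a library, so the smallest count behind a value of this comparison is 34 UMIs (Bach2).

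Lef1 changed most, with a log2 change of -1.52 (SE 0.069, adjusted p = 2.3e-19). Its lowest, median and highest library were 140, 351 and 510 CPM with Foxp3 and 621, 861 and 990 CPM without. Satb1 changed by -1.14 (SE 0.059, adjusted p = 9.9e-18), with 199, 273 and 362 CPM against 439, 513 and 586 CPM. Tcf7 was lower by -0.99 (SE 0.059, adjusted p = 4.3e-16), with 226, 285 and 327 CPM against 434, 483 and 551 CPM. None of these 3 genes overlapped between the sides. At most 4.1% of all genes, those lower in all 8 libraries, can lie apart in this direction.

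Klf2 had a log2 change of -0.73 (SE 0.056, adjusted p = 3.0e-13) and was lower in CPM in all 8 libraries, with overlapping ranges of 322 to 1373 and 574 to 2170 CPM. This call was lost without the library block (adjusted p = 0.12). Bach2 changed by -0.42 (SE 0.075; -0.85 with cells thinned to 2000 UMIs) and Foxp1 by -0.29 (SE 0.050), and in CPM they were lower in 7 and 6 libraries.

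The scaling matters for the last 2 members. Foxo1 had a log2 change of -0.04 (SE 0.053, adjusted p = 0.67) in the fit. In CPM it was higher with Foxp3 in all 8 libraries, by 0.07 to 0.29 (mean 0.17) on the log2 scale. The share of all genes higher in all 8 is not given here. Klf3 had -0.03 (SE 0.072, adjusted p = 0.84), while its mean log2 ratio of CPM was 0.14 and 6 of 8 libraries were higher. In CPM the median gene was 0.14 higher on the log2 scale on the Foxp3 side, and the fit is relative to that shift.

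Of the 14 targets and naive markers 10 were lower and 2 higher with Foxp3 (median -0.68). The lower ones were led by Dapl1 (-1.99, SE 0.11), Il7r (-1.29, SE 0.073), the interleukin-7 receptor that regulatory T cells are known to hold at a low level, Rasgrp2 (-1.08, SE 0.068) and Txk (-0.98, SE 0.067). Of 11 effector factors tested 9 were higher and 2 lower, with Maf (2.61, SE 0.11), Nfil3 (2.41, SE 0.21), Bhlhe40 (2.35, SE 0.16) and Tbx21 (1.04, SE 0.38) leading. Of 12 resting factors 5 were higher and 2 lower, Mxd4 (1.27, SE 0.085), Myb (1.07, SE 0.23), Bcl6 (0.86, SE 0.21) and Id3 (0.66, SE 0.11) among them. Of 8 relatives tested Foxp4 (0.70, SE 0.11) and Klf6 (0.27, SE 0.057) were higher.

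Between CD8-gated cells without Ccl5 and CD4-gated cells the members' log2 changes ran from -0.38 to 0.14. The sides were gated unlike each other. CD8-gated cells with Ccl5 were left out, while the CD4 gate was not split and kept its 1126 cells with Foxp3. The part of this in the values was not tested. Of the 8 factors 5 were lower, 1 was higher and 2 did not pass the test, where 23.8% of 11286 genes were called lower and 23.5% higher. Foxo1 had a log2 change of -0.38 (SE 0.031, adjusted p = 5.3e-09), with 136, 148 and 162 CPM in the CD8 gate against 165, 211 and 239 CPM in the CD4 gate as lowest, median and highest library. Tcf7 changed by -0.30 (SE 0.027, adjusted p = 2.5e-08), Satb1 by -0.24 (SE 0.030), Bach2 by -0.23 (SE 0.028) and Lef1 by -0.11 (SE 0.036, adjusted p = 0.017). In CPM the first 4 were lower in all 8 libraries, as were 25.9% of all genes, and Lef1 in 7. The median gene was itself 0.07 lower in CPM on the log2 scale on the CD8 side, and the fit is relative to that shift.

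Klf2 was called higher, by 0.14 (SE 0.044, adjusted p = 0.016), yet in CPM it was lower in 4 of the 8 libraries, with a mean log2 ratio of 0.06. The early response genes (Fos, Jun and the like) went the opposite way, with all 11 tested of 12 called lower (median -0.43), among them Nr4a1 (-1.002, SE 0.076), Junb (-0.87, SE 0.046) and Dusp1 (-0.86, SE 0.075), and their part in the result was not tested. Of 11 tested, 2 were higher and 1 lower in the Ccl5 split, and 3 were higher and 3 lower in the Foxp3 split. Klf3 had 0.07 (SE 0.036, adjusted p = 0.099), which passed the threshold without the active library (0.11, adjusted p = 0.0077), and Foxp1 0.03 (SE 0.022, adjusted p = 0.27). Without the library block only Tcf7 and Foxo1 were past the threshold. The Klf2 call was lost without the onset library (0.09, adjusted p = 0.053), and that of Lef1 without the active library (-0.08, adjusted p = 0.073) or vehicle day 3 (-0.10, adjusted p = 0.066), and with cells thinned to 2000 UMIs (-0.08, adjusted p = 0.10). Within the 4 libraries with Y-linked transcripts neither gene was called (0.08 and -0.06). Of the 14 targets 9 were lower and 3 higher, among them Dapl1 (0.82, SE 0.028), the antiproliferative Btg2 (-0.57, SE 0.031) and Slfn2 (-0.52, SE 0.033). Of 12 effector factors 8 were lower and 4 higher, among them Maf (-3.09, SE 0.10), Eomes (2.85, SE 0.14), Prdm1 (-2.00, SE 0.13) and Bhlhe40 (-1.76, SE 0.12).

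Klf2 was higher and Klf3 lower on day 4 than on days 2 and 3, whichever compound the mice had received. In the CD4 gate Klf2 stood at 847 and 966 CPM in the vehicle libraries of days 2 and 3 and at 1932 CPM on day 4. The PPCA libraries had 555, 751 and 2135 CPM on the same days, and the active and onset libraries 673 and 693 CPM. Both day 4 libraries thus lay above all 6 others. The log2 change of day 4 against days 2 and 3, with treatment as a factor, was 1.56 (SE 0.22, adjusted p = 0.0035, edgeR quasi-likelihood test over 11955 genes). This fit counts the libraries of a day as separate replicates, with 3 residual degrees of freedom, although libraries of the same day deviated together (correlations of 0.19 to 0.51). The p-values for day 4, here and in the other subsets, thus measure the spread between libraries and not between harvest days, of which 1 is set against 2, and may be too small.

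The same step appeared in the other subsets. In CD8-gated cells without Ccl5 Klf2 was at 812, 923 and 1685 CPM in the vehicle libraries of days 2, 3 and 4 and at 682, 789 and 2179 CPM in those of PPCA (log2 change 1.45, SE 0.20, adjusted p = 0.0020). With Ccl5 the values were 680, 768 and 1092 CPM and 458, 606 and 1378 CPM (1.10, SE 0.24, adjusted p = 0.015). In Foxp3 cells they were 742, 700.5 and 1449 CPM and 349, 581 and 1316 CPM (1.37, SE 0.21, adjusted p = 0.0014). Both day 4 libraries were above all others in each subset, and above days 2 and 3 in the same way stood 10.4% of all genes in the CD4 gate, 9.13% without Ccl5, 10% with Ccl5 and 9.17% in Foxp3 cells. Over all genes tested 8.51% in the CD4 gate, 8.74% without Ccl5, 5.71% with Ccl5 and 3.88% in Foxp3 cells were called higher on day 4.

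Klf3 went the other way. In the CD4 gate it stood at 144, 104 and 88.4 CPM in the vehicle libraries and at 140, 124 and 94.3 CPM in the PPCA libraries of days 2, 3 and 4 (log2 change -0.32, SE 0.10, adjusted p = 0.073). It was called lower in CD8-gated cells with Ccl5, with 138, 107 and 71.0 CPM and 118, 115 and 76.2 CPM (-0.57, SE 0.12, adjusted p = 0.015). Without Ccl5 the values were 133, 108 and 87.3 CPM and 153, 141 and 88.8 CPM (-0.40, SE 0.10, adjusted p = 0.028). In Foxp3 cells they were 159, 125 and 92.8 CPM and 165, 153 and 88.0 CPM (-0.61, SE 0.14, adjusted p = 0.024). The day 4 values lay below those of days 2 and 3 in each subset, in CPM, as did those of 27.9% of all genes in the CD4 gate, 20.6% with Ccl5, 30.1% without and 19.4% in Foxp3 cells. Called lower were 6.31%, 3.35%, 6.93% and 1.28% of genes in the same order.

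The other 6 members did not pass the test in any subset, with log2 changes between -0.22 (Lef1, Foxp3 cells) and 0.26 (Bach2, CD8-gated cells without Ccl5). In CPM the median gene was 0.10 to 0.18 lower on day 4 on the log2 scale, and the fitted changes are relative to that. With only 1 day 4 library in each arm, no Klf2 or Klf3 call was left when the PPCA library of day 4 was left out, although the log2 change of Klf2 stayed at 1.21, 0.62, 1.07 and 1.11 in the CD4 gate, with Ccl5, without Ccl5 and in Foxp3 cells. Leaving out the vehicle library of day 4 gave 1.88, 1.54, 1.81 and 1.64, all 4 called. With Ccl5, the Klf2 call was also lost without vehicle day 2 (1.07, adjusted p = 0.067) or PPCA day 3 (1.16, adjusted p = 0.058). The Klf3 call depended on more libraries. It was lost without vehicle day 4 with Ccl5, without vehicle day 2, PPCA day 3 or vehicle day 4 in cells without Ccl5, and without any 1 library other than vehicle day 3 in Foxp3 cells. Within the libraries with Xist, day 4 (vehicle, 1932 CPM in the CD4 gate) stood above day 2 (PPCA, 555 CPM), and within those with Y-linked transcripts, day 4 (PPCA, 2135 CPM) stood above the other 3 (751 to 966 CPM).

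Genes that respond within minutes to handling or stimulation were also higher on day 4. Of 12 such genes (Fos, Jun and the like) 7 were higher on day 4 in the CD4 gate, 6 with Ccl5, 10 without and 8 in Foxp3 cells, and none was lower, with 10 to 12 of them tested. Their summed level in the CD4 gate was 6154 CPM (vehicle) and 10424 CPM (PPCA) on day 4 and 1712 to 3539 CPM on days 2 and 3. Atf3 (5.32, SE 0.58), Nr4a1 (2.64, SE 0.14), Dusp1 (2.13, SE 0.36) and Junb (1.92, SE 0.37) led there. In that gate 12 of them were tested, against 11 in the PPCA fit of the same libraries. Thus 1 passed the low-count filter only when libraries were grouped by day. The pancreas markers summed to 43.5 to 68.1 CPM on day 4 and 94.1 to 252 CPM on days 2 and 3 in the CD4 gate, and the ranges overlapped in the other 3 subsets. Markers of other T cell subsets also lay apart on day 4 in some of the subsets. The 4 regulatory T cell markers summed to 168 to 227 CPM on day 4 against 40.3 to 75.6 CPM on days 2 and 3 in CD8-gated cells with Ccl5, and to 73.2 to 91.7 against 29.4 to 69.7 CPM without. The 6 cytotoxic markers summed to 417 to 483 against 568 to 602 CPM without Ccl5, and to 704 to 746 against 285 to 675 CPM in Foxp3 cells. In the CD4 gate both sums overlapped, at 114 to 306 against 135 to 218 CPM (regulatory) and 88.5 to 440 against 110 to 186 CPM (cytotoxic). The cytotoxic sum with Ccl5 and the regulatory sum in Foxp3 cells overlapped too. B cell markers were at 10.7 to 12.004 against 16.4 to 23.2 CPM without Ccl5. The part of handling, of pancreas RNA or of these other cells in the Klf2 and Klf3 values was not tested, and the harvest day cannot be told apart from the dissociation of that day.

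**Figure D4:**
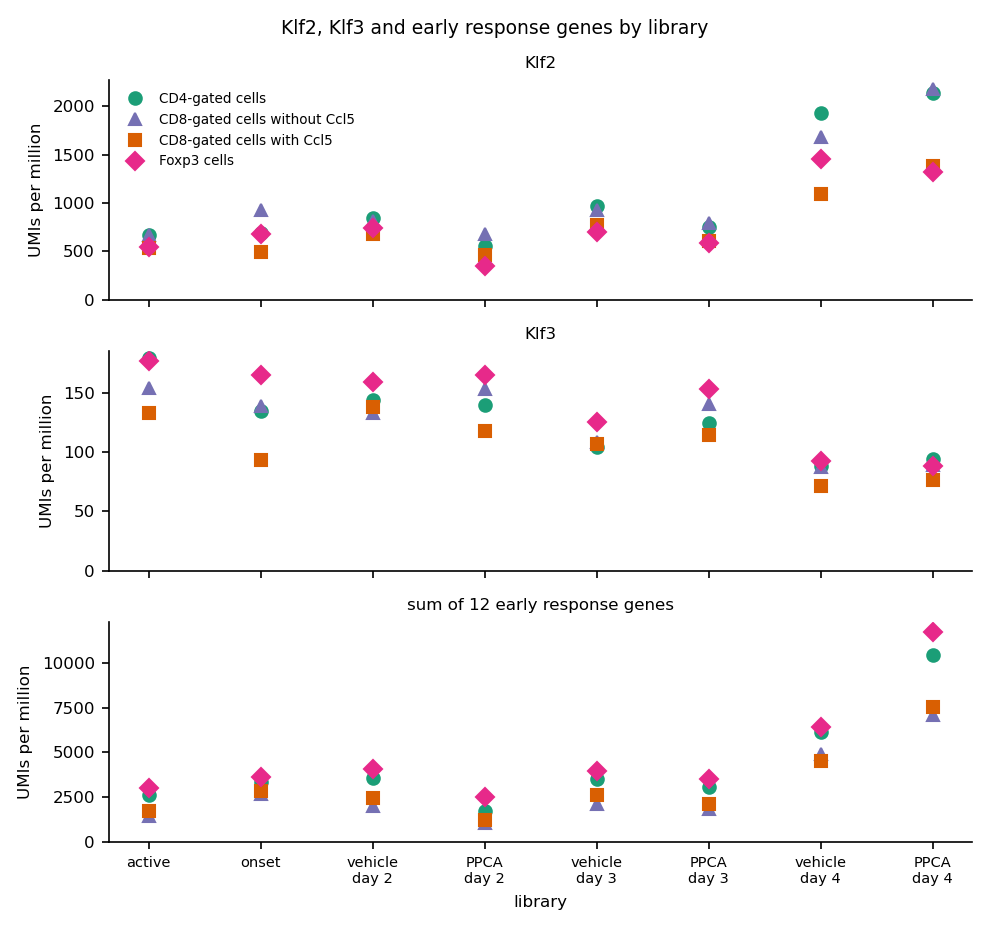
Klf2, Klf3 and the sum of 12 early response genes (y axes, CPM, from 0) in each library (x axis), by T cell subset. Both day 4 libraries are the highest for Klf2, from 1092 to 2179, and for the sum, and the lowest for Klf3, from 71.0 to 94.3.

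Other Krüppel-like factors were higher on day 4 in all 4 subsets: Klf6 (2.83, SE 0.26 in the CD4 gate), Klf4 (2.58, SE 0.71) and Klf10 (1.09, SE 0.25), the relatives called of 8 to 10 tested. Among the targets Tob1 (1.72, SE 0.20), Btg2 (1.21, SE 0.27), both restraints on proliferation, and Ccr7 (0.66 in the CD4 gate) were higher and Cd27 lower (-0.94, SE 0.11), and these 4 were called the same way in all 4 subsets, where 4 or 3 targets were higher and 1 lower. S1pr1, the exit receptor known to follow Klf2, did not pass the test in any subset, and it and Ccr7 were picked out after their values were seen. Of the resting factors Tsc22d3 (1.84, SE 0.17), the glucocorticoid-induced GILZ, was higher and Id3 (-0.74, SE 0.12) lower in all 4. Of the effector factors Nfil3 (3.03, SE 0.25) and Bhlhe40 (2.74, SE 0.38) were higher in all 4.

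PPCA against vehicle, the comparison the treatment was designed for, moved none of the 8 factors past the threshold in any subset, with harvest day as a block. Over all genes 0% were called in the CD4 gate and in CD8-gated cells without Ccl5, 0.02% with Ccl5 and 0.0594% in Foxp3 cells. DESeq2 also called 0 members in each. By edgeR, at an unadjusted p under 0.05 there were 3 members in the CD4 gate, 4 with Ccl5, 0 without and 1 in Foxp3 cells, where 6.75%, 6.68%, 7.22% and 6.26% of all genes stood at that level.

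Fitted values were mostly negative. The median log2 change of the members was -0.21 in the CD4 gate (7 of 8 negative), -0.25 with Ccl5 (8 of 8), -0.05 without Ccl5 (6 of 8) and -0.25 in Foxp3 cells (6 of 8), against medians of 0.00 to 0.01 over all genes. In CPM the median gene was 0.04 to 0.08 higher with PPCA on the log2 scale, and the fits are relative to that shift. Without Ccl5 the sign depended on it, since in CPM the PPCA mean was higher than the vehicle mean for 6 of 8 members, 2 of them (Tcf7 and Klf3) on all 3 days, and no member was lower on all 3. In CPM the PPCA mean was lower for 6 members in the CD4 gate, 8 with Ccl5 and 6 in Foxp3 cells. The members are not independent of each other, and no test was made over them. Cells with 10 or more Ccl5 UMIs, where the members are lower, made up 66.6%, 52.0% and 59.0% of the CD8-gated cells with Ccl5 in the vehicle libraries of days 2, 3 and 4. In the PPCA libraries they made up 68.3%, 58.0% and 71.5%. The part of this share in the values with Ccl5 was not tested.

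Among the 8 members and these 4 subsets, Foxo1 alone had CPM that did not overlap between the arms, in the CD4 gate and in CD8-gated cells with Ccl5, where 1.15% and 1.41% of all genes were lower without overlap. In the CD4 gate the vehicle libraries of days 2, 3 and 4 had 222, 215 and 217 CPM of Foxo1, and the PPCA libraries 165, 207 and 178 CPM. With Ccl5 it was at 120, 128 and 118 CPM in the vehicle libraries and at 95.7, 115 and 109 CPM in the PPCA libraries. Its fitted log2 changes were -0.34 (SE 0.095, adjusted p = 0.69) and -0.28 (SE 0.10, adjusted p = 0.70).

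Bach2 in CD8-gated cells with Ccl5 had the largest fitted value there, -0.49 (SE 0.14, adjusted p = 0.45). It stood at 39.8, 39.6 and 37.0 CPM in the vehicle libraries and 24.6, 38.4 and 26.2 CPM in the PPCA libraries, so the day 3 pair was nearly level. The call appeared when the Xist or Y-linked class was added as a factor (-0.49, adjusted p = 0.016), a fit with 1 residual degree of freedom. Satb1 had -0.29 (SE 0.10, adjusted p = 0.72) in the CD4 gate and -0.30 (SE 0.11, adjusted p = 0.70) with Ccl5, and its day 3 ratios were positive in both, 0.07 and 0.05.

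Klf2 in Foxp3 cells had -0.53 (SE 0.16, adjusted p = 0.52). The vehicle and PPCA libraries differed by a log2 ratio of -1.09 on day 2 (95% counting interval -1.23 to -0.95), -0.27 on day 3 (-0.40 to -0.14) and -0.14 on day 4 (-0.24 to -0.04). It passed the threshold with the class as a factor (-0.53, adjusted p = 0.00057), again a fit with 1 residual degree of freedom. It also passed without a filter on low counts (-0.53, adjusted p = 0.010). Without the day 2 pair it was -0.27 (adjusted p = 0.87). In the CD4 gate the daily log2 ratios were -0.61, -0.36 and 0.14, and those of CD8-gated cells with Ccl5 -0.57, -0.34 and 0.34, so the day 4 pair had the opposite sign. Without the day 4 pair, Klf2 in CD8-gated cells with Ccl5 passed the threshold (-0.58, adjusted p = 0.035), with 2 pairs left.

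**Figure D5:**
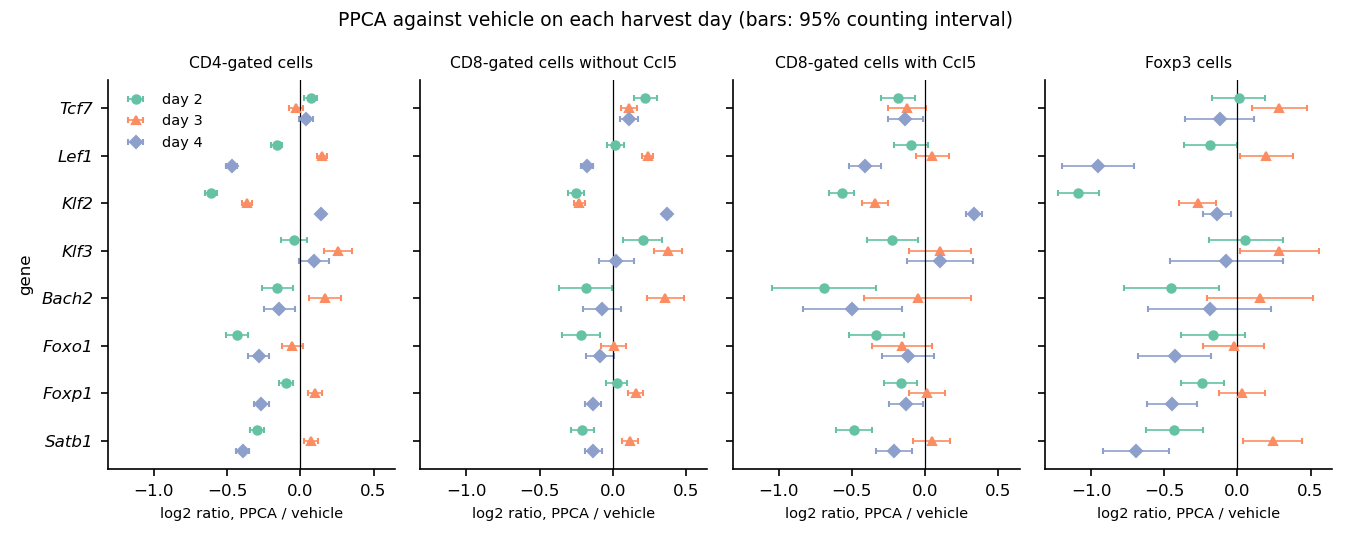
Log2 ratio of PPCA to vehicle (x axis) for each factor (y axis) on harvest days 2, 3 and 4 in 4 subsets, with bars for the 95% counting interval, which covers neither animals nor libraries. Points of the 3 days lie on both sides of 0 for many factors, and Klf2 in Foxp3 cells runs from -1.09 to -0.14.

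The effect of PPCA was also compared between subsets. Between the sides of the Ccl5 split no member passed the test of the difference (adjusted p = 0.998 for each of 8), though all 8 estimates were more negative with Ccl5 (median -0.17). The largest were Bach2 (-0.50, SE 0.16) and Tcf7 (-0.31, SE 0.10). By Ccl5 bin, Tcf7 had means of 359 CPM in vehicle and 371 in PPCA libraries with 1 to 2 Ccl5 UMIs, 347 and 361 with 3 to 9, and 245 and 207 with 10 or more, so it was lower with PPCA on 1, 0 and 3 of the 3 days. Of the members, 3 members had an unadjusted p under 0.05, where 3.82% of all genes did. Between the CD8 and CD4 gates 0 members passed either (0% of genes in the first test and 0.00823% in this one), with estimates of -0.07 to 0.15 and 1 unadjusted p under 0.05 (Klf2), where 3.77% of all genes did. DESeq2 called 0 members in both. Of the target, resting, effector, relative and early response lists 0 genes were called by edgeR in any PPCA comparison.

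Between the active and onset libraries there is 1 library on each side, so these are values with a counting interval and no test. The members were mostly somewhat higher in the active library: 7 of 8 in the CD4 gate, 8 of 8 with Ccl5, 6 of 8 without and 5 of 8 in Foxp3 cells. Their median log2 ratio was 0.16, 0.25, 0.07 and 0.08 in the same order, against -0.06, -0.13, -0.09 and -0.03 over all genes. Cells with 10 or more Ccl5 UMIs were 50.2% of those with Ccl5 in the active and 64.7% in the onset library, and the part of this in the values with Ccl5 was not tested. A difference of 1.5-fold was reached once, by Bach2 in CD8-gated cells with Ccl5, at 59.1 against 37.5 CPM (log2 ratio 0.66, interval 0.38 to 0.94), where 1.97% of 2951 genes at 50 CPM or more were that much higher and 5.08% that much lower. In the CD4 gate 1.73% of genes were that much higher and 1.48% lower, without Ccl5 1.5% and 2.03%, and in Foxp3 cells 3.89% and 3.7%. Satb1 in CD8-gated cells with Ccl5 was at 333 against 230 CPM (0.53, interval 0.42 to 0.65). Klf3 was at 180 against 134 CPM in the CD4 gate (0.42, interval 0.35 to 0.49). Klf2 was lower in the active library in 3 subsets, at 665 against 921 CPM in CD8-gated cells without Ccl5 (-0.47, interval -0.52 to -0.42), 540 against 677 CPM in Foxp3 cells (-0.33, interval -0.47 to -0.19) and by -0.04 in the CD4 gate (interval -0.08 to -0.01), and higher with Ccl5 (0.12, interval 0.04 to 0.20). Lef1 was lower without Ccl5 (-0.12, interval -0.16 to -0.07) and in Foxp3 cells (-0.20, interval -0.37 to -0.03). The last negative value, for Tcf7 in Foxp3 cells (-0.05, interval -0.26 to 0.16), lay within its counting interval of 0.

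Across 32 points, the 8 libraries by 4 subsets (CD4 with and without Foxp3, CD8 with and without Ccl5), the members fell into patterns of log2(CPM + 1) that share libraries and depth, so correlations are given as a description. Lef1 and Satb1 were most alike (Pearson r = 0.93), then Bach2 and Foxp1 (0.92), and Tcf7 went with Lef1 and Satb1 (0.83 for each). Klf2 and Klf3 had r = -0.69, and Klf2 had no r above 0.32 with any other member. Of 2712 genes at 50 CPM or more on average, those much like Tcf7 included Atp1b1 (0.93) and Igfbp4 (0.86). Lef1 was followed closely by Satb1 and Igfbp4 (0.92), and Satb1 by Lef1, Rasgrp2 (0.92) and Igfbp4 (0.90). The genes nearest to Foxo1 were Trib2 (0.91), Retreg1 (0.91) and Gpx1 (0.91), and those nearest to Bach2, after Foxp1, were Il6ra (0.91) and Itga6 (0.88). Foxp1 went with Bach2, Actn1 (0.92) and Dgka (0.88). Klf2 was closest to Vps37b (0.89), Gm20186 (0.89) and Tdp2 (0.88), and Klf3 to Pgs1 (0.87), Ctnnb1 (0.86) and Tnfaip8l2 (0.85).

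The authors' deposited table of cluster markers, which lists genes above a log2 fold change of 0.25 in 7 named clusters, holds 6 of the 8 members, all in CD4 clusters. In the authors' deposited table the CD4 Naive cluster has Lef1 (log2 fold change 0.67, found in 95.5% of its cells), Satb1 (0.55), Tcf7 (0.40), Foxo1 (0.28) and Bach2 (0.25). The same deposited table of the authors gives Satb1 (0.27) for CD4 Th0, Lef1 (0.30) for CD4 Th1, Klf3 (0.31) for CD4 Th17, and Foxo1 (0.29) with Klf3 (0.27) for CD4 Treg. Klf2 and Foxp1 are not listed in it.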

How the data were processed

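Counts deposited by the authors were used: UMI counts per gene and barcode for 8 libraries, made with Cell Ranger, whose version is 6.0.0 per the file headers and 6.1.2 per the submitters' processing notes. The genome build they used is not given in the sources used here. As deposited, the authors' marker table gives a log2 fold change, the fraction of cells with the gene, and p-values, per the file headers. Seurat is named in the submitters' processing notes, and no source here says how clusters were compared.

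Barcodes with at least 500 genes and under 10% mitochondrial UMIs were kept. Scrublet's own threshold marked 0 to 2 cells a library, so its highest scores were removed at 0.8% per 1000 barcodes (6516 cells). T cells with over 1 UMI of Cd79a, Cd79b, Ms4a1, Lyz2 or Csf1r were left out. UMIs were summed per library and subset and fitted with edgeR 4.0.16 (R 4.3.3): quasi-likelihood test, TMM scaling, filterByExpr, Benjamini-Hochberg over all genes tested, threshold 0.05. CPM is UMIs per 1000000 of the summed cells, without TMM. PPCA fits had harvest day as a block, since libraries of the same day deviated together (correlations of their deviations 0.19 to 0.51 over the 3 days and 4 subsets), and subset comparisons had the library. Ratios of single libraries carry exact 95% binomial intervals for counting error only. Alternatives were DESeq2 1.42.0, its size factors, no low-count filter, no cell filters, doublets kept, cells thinned to 2000 UMIs, at least 3 Ccl5 UMIs for that split, the Xist or Y-linked class, no block, and leaving out each library or pair. The fitting code was tested on simulated data. P-values measure the spread between libraries, which may be technical.

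The members, the gene lists and the day 4 comparison were chosen with earlier results of these data known. Named were the 8 members, from each list at most 4 called genes by size of the log2 fold change, and for each member the 3 genes most like it. Some genes that this rule names are not reported here. Shares of cells with a UMI are not given, since only 28 myeloid cells were found for their background. Protein sequences were not used here.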

Additional observations from a re-analysis of the deposited data

Results flagged for a closer look

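The log2 ratio of PPCA to vehicle for Tcf7 had opposite signs on the sides of the Ccl5 split on all 3 days, and it was picked out for this. In CD8-gated cells with Ccl5 the log2 ratio of PPCA to vehicle was -0.19, -0.12 and -0.13 on days 2, 3 and 4, and in CD8-gated cells without Ccl5 it was 0.22, 0.11 and 0.11. The mean ratios differed by -0.30. The edgeR quasi-likelihood test of the difference itself gave -0.31 (SE 0.10, unadjusted p = 0.0087), which did not pass adjustment over all genes (adjusted p = 0.998). Among cells with Ccl5, Tcf7 was lower with PPCA on 1 of 3 days at 1 to 2 Ccl5 UMIs (means of 359 CPM in vehicle and 371 in PPCA libraries), on 0 of 3 at 3 to 9 (347 and 361) and on 3 of 3 at 10 or more (245 and 207). Cells of that last bin were 388 of 583 cells with Ccl5 in vehicle and 780 of 1142 in PPCA on day 2, 361 of 694 and 269 of 464 on day 3, and 345 of 585 and 1113 of 1556 on day 4. Their part in the result was not tested.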

How the results depend on the processing

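Of 1320 values of single members under the alternatives, 53 changed sign, and none of these was called in either fit. Klf3 in the Foxp3 split, not called, ran from -0.088 to 0.014 when single libraries were left out (0.00022 without vehicle day 2, 0.013 without vehicle day 4, 0.014 without PPCA day 4), and was 0.035 in the Y-linked libraries alone and 0.058 without both day 4 libraries, an alternative added after seeing the data. For PPCA, 1 member was called with Ccl5 when the Xist or Y-linked class was a factor, 0 to 1 when pairs were left out, and 1 in Foxp3 cells with that class or without the low-count filter. For day 4, leaving out 1 library gave 0 to 1 called members in the CD4 gate and 0 to 2 in each other subset. DESeq2 gave 2 in the CD4 gate and 1 in Foxp3 cells, where no cell filters and thinning to 2000 UMIs also gave 1. Without the replicate block, CD8 against CD4 called 2 members, the Ccl5 split 6, the Foxp3 split 5 and PPCA 0 in every subset. That fit called 2011 against 4315 genes in the Ccl5 split, 1906 against 5333 between the gates and 2015 against 3159 in the Foxp3 split. DESeq2 called 30, 18, 27 and 7 genes for PPCA (CD4, with Ccl5, without, Foxp3) against 0, 2, 0 and 5, and no low-count filter 199, 144, 164 and 84. For day 4 DESeq2 called 599 against 933 genes with Ccl5 and 244 against 452 in Foxp3 cells. Thinning called 1114 against 1771 in the CD4 gate, 463 with Ccl5, 216 in Foxp3 cells and 1153 in the Foxp3 split, and no filter gave 1507 with Ccl5 and 744 in Foxp3 cells. The causes were not tested. Bach2 rests on 3 to 31 UMIs a library in the 3 to 9 Ccl5 bin, 20 to 69 in the 10 or more bin and 34 to 90 in CD4-gated cells with Foxp3.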
